A study of Homo sapiens with 12 samples.

Results

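The genes described here are the 5 tubulin-folding cofactors TBCA, TBCB, TBCC, TBCD and TBCE, the small GTPase ARL2 that works with them, the tubulin mRNA decay factor TTC5, and stathmin, STMN1. They were taken from the table by symbol. The 8 symbols matched 9 of its 60671 genes, because TBCE is listed under both ENSG00000284770 and ENSG00000285053. The level of all 9 passed the minimum of a mean of 1 FPKM over the libraries, as did 11591 genes in all. FPKM is fragments per kilobase of gene, scaled to the total fragments of the library. It is meant to let levels be compared between genes, but the gene lengths used are not given in the sources used here.

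RNA was sequenced from 12 libraries labelled Jurkat, a line grown from the leukemia of a human T cell, with 3 libraries in each of 4 groups. NC cells are labelled wild type, while the study's methods describe a control carrying an empty GFP vector. PTPN21 cells carry a lentiviral FLAG-tagged PTPN21, a protein tyrosine phosphatase, driven by the SFFV promoter. Each was treated for 48 h with DMSO, the solvent, or with vincristine (VCR), and the 4 groups are written NC+DMSO, NC+VCR, PTPN21+DMSO and PTPN21+VCR. The sources used here name no VCR dose for the sequenced cells. The methods describe sequencing only for the VCR-treated groups, with 3 replicates a group, so the DMSO groups rest on the sample labels. They say in general terms that experiments were repeated, but not whether these libraries came from separate cultures. The p-values therefore measure only the spread between these libraries, which may be technical.

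New alpha and beta tubulin chains pass from prefoldin to the TRiC chaperonin and then to the cofactors. TBCA holds beta tubulin and TBCB holds alpha tubulin, TBCD and TBCE join the chains in a complex with ARL2, and TBCC releases the finished dimer by triggering GTP hydrolysis. Stathmin binds finished dimers and destabilizes microtubules. When free dimers are abundant, TTC5 binds the first residues of a tubulin chain as it leaves the ribosome and, through SCAPER and the CCR4-NOT deadenylase, has the tubulin mRNA degraded. VCR binds beta tubulin and blocks microtubule assembly.

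Because TTC5 acts where the start of a tubulin chain is made, the first codons of tubulin mRNAs are shown for the 4 tubulin genes with the smallest adjusted p under VCR and for TUBA1B, an alpha tubulin chosen after its values were seen. The sequences are from GENCODE 29 principal transcripts, 5′ to 3′, and capitals mark the first 4 codons.
TUBB2B: ATGCGTGAGATCgtg
TUBB2A: ATGCGCGAGATCgtg
TUBB: ATGAGGGAAATCgtg
TUBB1: ATGCGTGAAATTgtc
TUBA1B: ATGCGTGAGTGCatc
In GRCh38, the start codons lie in coding exons at chr6:3227541-3227543 (minus strand) for TUBB2B, chr6:3157461-3157463 (minus) for TUBB2A, chr6:30720507-30720509 (plus) for TUBB, chr20:59019523-59019525 (plus) for TUBB1 and chr12:49131298-49131300 (minus) for TUBA1B.

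The promoters of ARL2, TBCA and TTC5, the members that passed the threshold after VCR, are shown next, each from 250 bases before to 50 bases after the RefSeq start in GRCh38.p14, on the strand of the gene. Capitals mark matches on either strand to any of 9 motifs, which are the GC box GGGCGG, the CCAAT box CCAAT, the ETS core CCGGAAG, the NRF1 core (by name only), the CRE TGACGTCA, the E-box CACGTG, the CHR TTTGAA, the E2F core TTCCCGC and the TATA box TATAAA.
ARL2, chr11:65013910-65014209, plus strand: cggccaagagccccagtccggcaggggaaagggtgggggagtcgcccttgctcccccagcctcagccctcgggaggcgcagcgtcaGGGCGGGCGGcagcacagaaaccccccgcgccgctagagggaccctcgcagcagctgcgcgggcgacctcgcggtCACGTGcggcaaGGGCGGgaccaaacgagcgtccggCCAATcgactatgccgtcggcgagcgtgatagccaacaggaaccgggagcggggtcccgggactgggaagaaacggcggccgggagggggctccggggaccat
TBCA, chr5:77776290-77776589, minus strand: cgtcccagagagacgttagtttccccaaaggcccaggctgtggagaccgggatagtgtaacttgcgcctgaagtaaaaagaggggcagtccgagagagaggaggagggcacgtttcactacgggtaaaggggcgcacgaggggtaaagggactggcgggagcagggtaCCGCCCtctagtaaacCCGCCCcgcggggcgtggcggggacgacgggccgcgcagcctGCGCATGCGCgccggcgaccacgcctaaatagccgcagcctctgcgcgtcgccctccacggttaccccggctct
TTC5, chr14:20305902-20306201, minus strand: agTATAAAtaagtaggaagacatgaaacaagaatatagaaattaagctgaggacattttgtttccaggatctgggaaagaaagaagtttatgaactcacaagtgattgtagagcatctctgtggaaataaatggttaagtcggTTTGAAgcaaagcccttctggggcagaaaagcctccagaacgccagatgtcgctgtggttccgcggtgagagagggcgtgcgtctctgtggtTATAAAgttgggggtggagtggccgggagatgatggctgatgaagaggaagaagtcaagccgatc

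The ARL2 window held 3 GC boxes, of which those starting at -164 and -160 overlap, an E-box and a CCAAT box. The TBCA window held 2 GC boxes on the opposite strand and an NRF1 core at -24. The TTC5 window held a CHR at -107 and TATA boxes at -248 and -15. Among 35116 RefSeq promoter windows of this length, 45.0% held a GC box, 34.6% a CCAAT box, 7.26% an E-box, 1.24% an NRF1 core, 15.2% a CHR and 11.5% a TATA box. No ETS core, CRE or E2F core was found in these 3 windows, and the shares over all windows were 10.3%, 1.85% and 6.55%. A match says only that these letters occur in the window.

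The libraries were checked against their labels. PTPN21 lay between 0.0212 and 0.57 FPKM in the 6 NC libraries and between 4.34 and 10.5 FPKM in the 6 PTPN21 libraries. Of 9 T lineage markers, only CD3D had a mean of at least 1 FPKM (61.8 to 139.7), LCK and CD247 were listed at 0 in all 12 libraries, and the highest value of the other 8 in any library was 1.13 FPKM. In contrast, EPCAM, an epithelial gene, was at 58.3 to 122.7 FPKM and, chosen after their values were seen, GATA1 at 13.5 to 106.5 FPKM and HBG1, a fetal globin, at 187.8 to 709.1 FPKM. The defining T cell markers thus went against the label, although some genes at 0 may be failed estimates, since UBE2C, a gene of dividing cells, did not exceed 0.81 FPKM. From steps in the values of 8704 single-exon genes, depth was estimated at 14.5 to 17.8 M fragments (M, 1e6) in NC libraries and 20.6 to 24 M in PTPN21 libraries. Depth and construct therefore cannot be told apart. Within NC cells the estimates were 14.5 to 16.4 M with DMSO and 16.7 to 17.8 M with VCR. Within PTPN21 cells they were 22.6 to 24 M with DMSO and 20.6 to 22.3 M with VCR. So depth and VCR cannot be told apart within a cell type either. These depths are rough, since only 35.6% to 48.3% of low values lay near a whole number of fragments, against 20% by chance, and only depths of 13 to 25 M were searched.

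STMN1 and TBCA had by far the highest FPKM of the members. Mean FPKM over the 12 libraries was 519.4 for STMN1, 355.2 for TBCA, 33.9 for ARL2, 23.3 for TBCC, 23.2 for TBCE (ENSG00000284770), 17.8 for TBCB, 5.68 for TBCD, 4.09 for TBCE (ENSG00000285053) and 2.53 for TTC5. Within libraries, STMN1 exceeded TBCA in 12 of 12, TBCA exceeded each lower member in 12 of 12, and ARL2 exceeded TBCB in 12 of 12. Neighbours in the middle of the order were not separated, since ARL2 exceeded TBCC in 8 of 12 libraries, TBCC exceeded TBCE (ENSG00000284770) in 7 of 12 and the latter exceeded TBCB in 8 of 12. Among the lowest, TBCD exceeded TBCE (ENSG00000285053) in 8 of 12 libraries, which in turn exceeded TTC5 in 7 of 12, while TBCD exceeded TTC5 in 11 of 12.

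**Figure D1:**
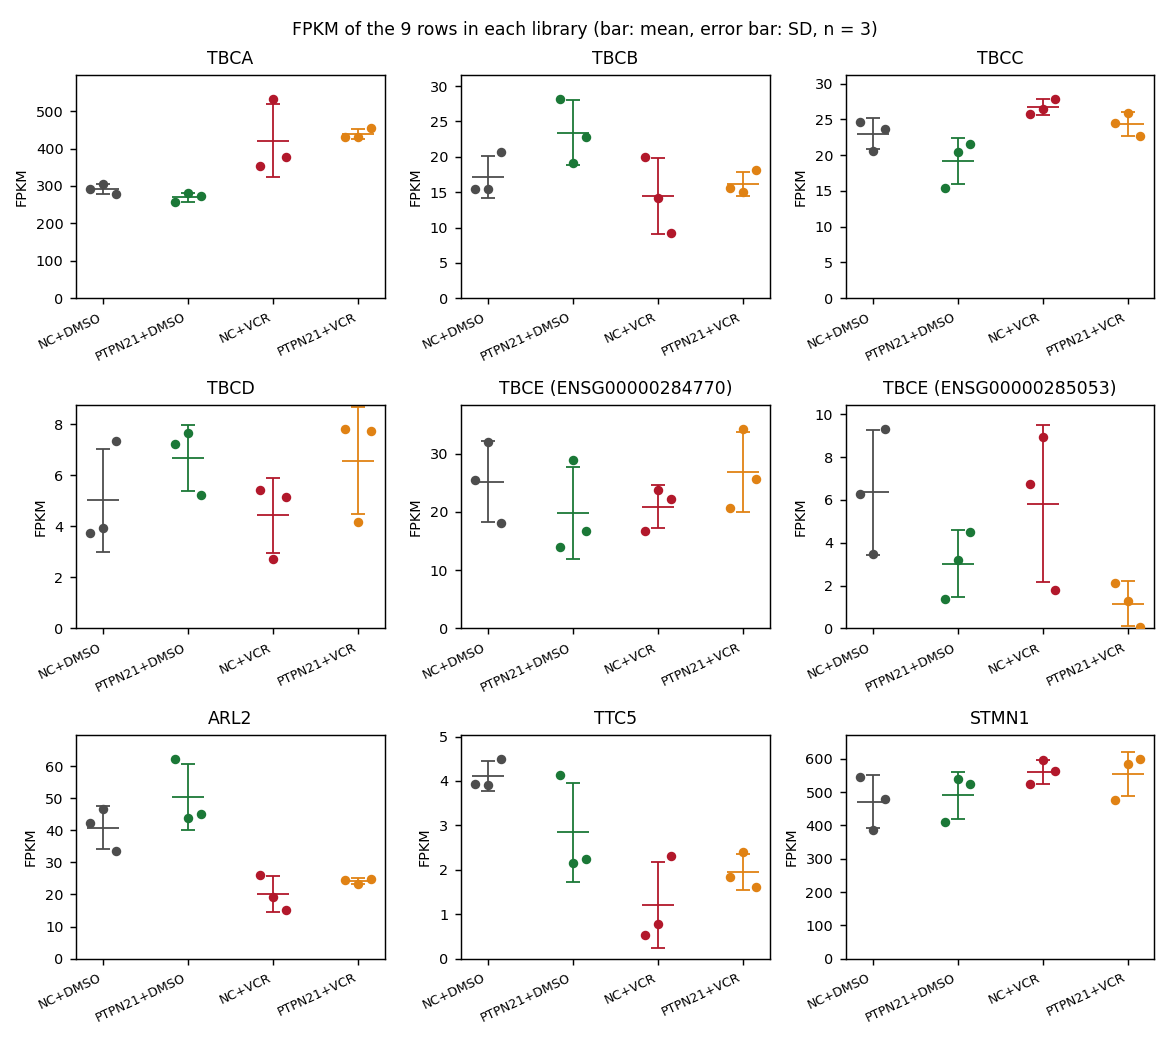
FPKM of each member (vertical axis, from 0) in the 4 groups (horizontal axis). Points are libraries, horizontal bars are means and error bars are SD (n = 3). TBCA lay between 352.4 and 533.7 FPKM in the VCR libraries and between 255.9 and 304.4 FPKM in the DMSO libraries, and ARL2 between 15.1 and 26.1 FPKM with VCR and between 33.7 and 62.2 FPKM without.

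The first comparison asked how VCR changed these genes in control cells. TBCA rose, and ARL2 and TTC5 fell, while the other 6 members did not pass an adjusted p of 0.05 (limma on log2(FPKM + 1), Benjamini-Hochberg over 11591 genes). That is 3 of 9 members, or 33.3%, beside 36.2% of all genes tested. The FPKM of the groups did not overlap for 4 of 9 members, ARL2, TBCA, TBCC and TTC5, beside 44.1% of all genes. The members as a set were thus called about as often as genes in general. Fold changes on this scale understate the change of low genes such as TTC5.

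The median of all genes was itself -0.36 in this comparison, with 7.91% of genes called higher and 28.3% called lower. Of the genes called, 21.9% were higher, which became 55.8% after median ratio scaling, where the median of all genes was -0.04. With TPM scaling, which sets the FPKM totals of the libraries equal, the higher share was 16.3% and the median -0.49. On FPKM as deposited, 7 of 9 members lay above the median of all genes, and their own median was -0.22. In bulk RNA, fewer cells of a type and less RNA per cell cannot be told apart. Of 15 proliferation markers tested, 2 rose in NC+VCR, CCNB1 (log2 fold change 1.21) and CCNB2 (0.34, named after its value was seen), and 10 fell, including MCM6 (-0.78) and MCM7 (-0.69). Median ratio scaling left 2 higher and 3 lower, with 1 of the falls turned positive, and quantile normalization 2 higher and 6 lower. The part of cell cycle changes in the members' changes was not tested.

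TBCA (ENSG00000171530), which holds beta tubulin after it leaves the chaperonin, is at chr5:77691166-77868780, minus strand (GENCODE 29, GRCh38, as for all genes here). Its FPKM was 292.4, 304.4 and 277.7 in NC+DMSO and 352.4, 533.7 and 377.6 in NC+VCR. Every VCR library was above every DMSO library, and replicate 2 stood above the other VCR libraries. The mean rose from 291.5 ± 13.3 to 421.2 ± 98.2 (SD, n = 3), or by 0.51 on the log2 scale (SE 0.135, limma adjusted p = 0.0124). Without NC+VCR replicate 2 it was 0.32, still past the threshold, and with only NC+DMSO and NC+VCR in the fit the limma adjusted p was 0.0635. Relative to the median gene the rise was 0.87, and after median ratio scaling the fitted change was 0.90. The pseudogene TBCAP1, which could take reads of TBCA, lay between 0.87 and 5.36 FPKM over the libraries.

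ARL2 (ENSG00000213465), the GTPase that acts with TBCD, is at chr11:65014113-65022184, plus strand. Its FPKM was 42.2, 46.7 and 33.7 in NC+DMSO and 26.1, 19.2 and 15.1 in NC+VCR, without overlap. The mean fell from 40.8 ± 6.61 to 20.1 ± 5.56 (SD, n = 3), and the log2 fold change was -1.01 (SE 0.201, limma adjusted p = 0.00271). Relative to the median gene it was -0.64. With median ratio scaling, which sets the typical gene equal between libraries, it was -0.63 (limma adjusted p = 0.0599). The readthrough gene ARL2-SNX15 shares 365 exonic bases with ARL2 and had a mean of 1.01 FPKM.

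TTC5 (ENSG00000136319), at chr14:20256558-20305994, minus strand, had the largest fold change of the members in these cells. Its FPKM was 3.94, 3.90 and 4.50 in NC+DMSO and 0.527, 0.779 and 2.31 in NC+VCR. All VCR libraries were below all DMSO libraries, though replicate 3 was clearly higher than the other VCR libraries. The log2 fold change was -1.30 (SE 0.298, limma adjusted p = 0.00581), or -0.93 relative to the median gene. Quantile normalization gave -0.81 (limma adjusted p = 0.0573). At the estimated depths, a TTC5 value rests on 9.38 to 94.4 fragments per kilobase of gene.

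TBCC (ENSG00000124659), the factor that triggers dimer release, is a single-exon gene at chr6:42744481-42746096, minus strand. Its FPKM was 24.7, 20.6 and 23.7 in NC+DMSO and 25.8, 26.5 and 27.9 in NC+VCR. The groups did not overlap but lay close together, with a log2 fold change of 0.21 (SE 0.147, limma adjusted p = 0.277). It passed after median ratio scaling, at 0.59 (limma adjusted p = 0.00768), and after quantile normalization, at 0.49 (limma adjusted p = 0.0218).

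STMN1 (ENSG00000117632), the dimer-binding destabilizer of microtubules, is at chr1:25884181-25906991, minus strand. Its FPKM was 545.3, 387.8 and 480.8 in NC+DMSO and 523.7, 597.0 and 562.5 in NC+VCR, and the groups overlapped. The log2 fold change was 0.26, with a 95% interval from -0.06 to 0.58 (limma adjusted p = 0.182). With median ratio scaling it was 0.65 (limma adjusted p = 0.00768), so whether STMN1 passes depends on the scaling. It passed under only 1 of 21 alternative settings, and the lowest fitted change among them was 0.07. The pseudogene STMN1P1 lay between 0.58 and 6.5 FPKM.

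TBCB, TBCD and TBCE overlapped between NC+DMSO and NC+VCR. TBCB (ENSG00000105254, chr19:36114289-36125947, plus strand), the alpha tubulin cofactor, was at 15.5, 15.4 and 20.6 FPKM in NC+DMSO and at 19.9, 14.2 and 9.23 FPKM in NC+VCR. TBCD (ENSG00000141556, chr17:82752064-82945922, plus strand), the scaffold of the dimer-making complex, was at 3.75, 3.95 and 7.34 FPKM and at 5.41, 2.74 and 5.14 FPKM. Their log2 fold changes were -0.28 and -0.14, with limma adjusted p of 0.377 and 0.75, and both turned positive with median ratio scaling (0.09 and 0.18) and with quantile normalization (0.03 and 0.28). TBCB shares 417 exonic bases with POLR2I on the opposite strand, which had a mean of 98.1 FPKM. TBCD shares 787 exonic bases with B3GNTL1, also on the opposite strand, which had a mean of 4.40 FPKM. The strand setting of the counting is not given in the sources used here, so reads of these genes may not be separated.

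The TBCE rows must be read with care. ENSG00000284770 (chr1:235367360-235452443) and ENSG00000285053 (chr1:235328570-235448952), both on the plus strand, share 2232 exonic bases, which is 43.06% of the exons of ENSG00000285053. ENSG00000285053 also shares 1422 bases with GGPS1, and ENSG00000284770 shares 418 with B3GALNT2 on the opposite strand (mean 1.85 FPKM). ENSG00000284770 was at 25.5, 31.9 and 18.2 FPKM in NC+DMSO and at 16.8, 23.7 and 22.1 FPKM in NC+VCR. ENSG00000285053 was at 6.27, 3.48 and 9.33 FPKM in NC+DMSO and at 6.73, 8.95 and 1.79 FPKM in NC+VCR. Both overlapped widely, and with the rows summed the log2 fold change of TBCE was -0.24 (limma adjusted p = 0.465).

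**Figure D2:**
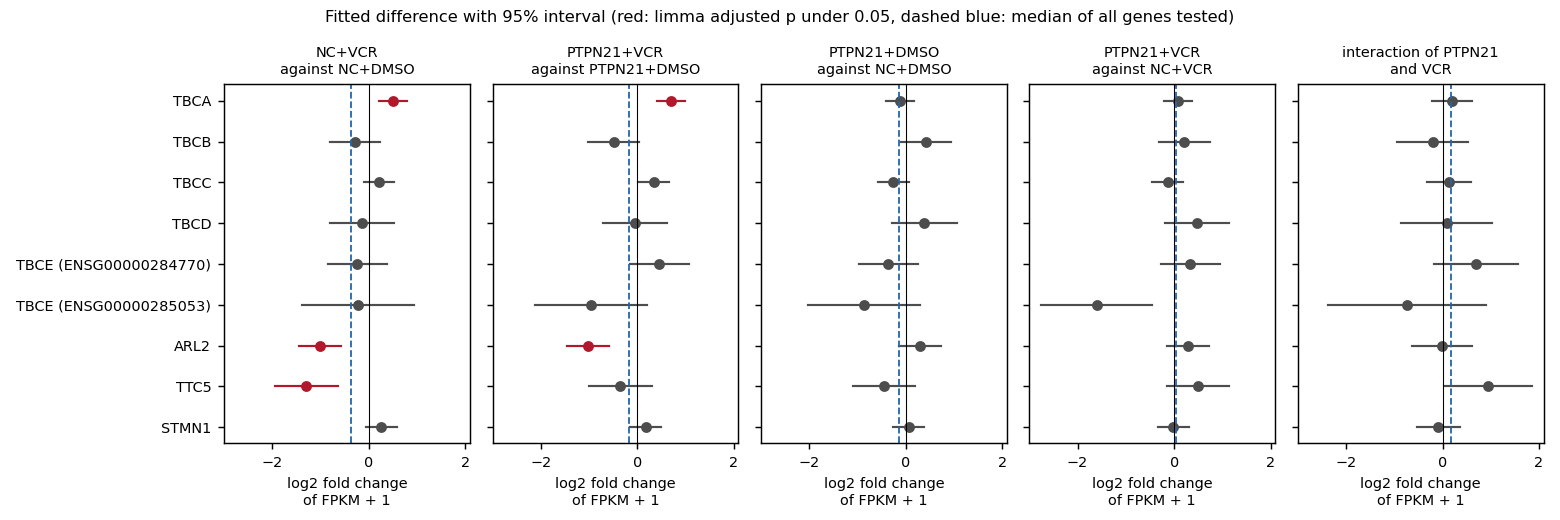
Fitted log2 fold change of FPKM + 1 (horizontal axis) of each member in the 5 comparisons (panels), with its 95% interval. Red marks a limma adjusted p under 0.05 and the dashed blue line is the median of all genes tested. Red points occur only in the VCR comparisons, 3 in NC cells and 2 in PTPN21 cells.

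The second comparison asked the same of PTPN21 cells. TBCA rose and ARL2 fell again, and no other member passed. These are 2 of 9 members (22.2%), beside 28.5% of all genes, and the median of all genes was -0.17. By direction, 9.22% of all genes were called higher and 19.3% lower. The higher share of the calls, 32.3%, became 52.2% after median ratio scaling and 30.0% after TPM scaling. The groups did not overlap for ARL2, TBCA, TBCB and TBCC, 4 of 9 members beside 50.4% of all genes. Of the proliferation markers, 2 rose and 8 fell, and the falls numbered 5 after median ratio scaling and 6 after quantile normalization.

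TBCA was at 255.9, 280.0 and 272.1 FPKM in PTPN21+DMSO and at 430.2, 430.9 and 454.6 FPKM in PTPN21+VCR. The replicates were tight and far apart between groups, with means of 269.3 ± 12.3 and 438.6 ± 13.9 (SD, n = 3). The log2 fold change was 0.70 (SE 0.135, limma adjusted p = 0.00253). It passed under 21 of 21 alternative settings.

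ARL2 was at 62.2, 43.9 and 45.2 FPKM in PTPN21+DMSO and at 24.4, 23.1 and 24.9 FPKM in PTPN21+VCR. PTPN21+DMSO replicate 1 was the highest of the 12 libraries, and the VCR libraries lay close together below all DMSO libraries. The fitted change was -1.02 on the log2 scale (SE 0.201, limma adjusted p = 0.00306). None of 21 alternative settings ended this call.

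TTC5 did not pass in PTPN21 cells. Its FPKM was 4.14, 2.16 and 2.24 in PTPN21+DMSO and 1.85, 2.40 and 1.62 in PTPN21+VCR. The groups overlapped, and PTPN21+DMSO replicate 1 was at the NC+DMSO level while the others were at the level of the VCR libraries. The log2 fold change was -0.35, with a 95% interval from -1.0 to 0.30 (limma adjusted p = 0.414).

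TBCB was at 28.2, 19.1 and 22.8 FPKM in PTPN21+DMSO and at 15.5, 15 and 18.1 FPKM in PTPN21+VCR, with no overlap, and changed by -0.49 on the log2 scale (limma adjusted p = 0.15). TBCC was at 15.5, 20.5 and 21.6 FPKM in PTPN21+DMSO and at 24.6, 25.9 and 22.6 FPKM in PTPN21+VCR, again without overlap. Its log2 fold change was 0.34 (limma adjusted p = 0.104), which became 0.53 with median ratio scaling (limma adjusted p = 0.014) and 0.50 with quantile normalization (limma adjusted p = 0.0186). For TBCC both VCR comparisons therefore passed under these scalings and not on FPKM as deposited.

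STMN1 was at 410.2, 538.5 and 524.3 FPKM in PTPN21+DMSO and at 477.1, 585.6 and 599.9 FPKM in PTPN21+VCR. TBCD was at 7.21, 7.63 and 5.22 FPKM in PTPN21+DMSO and at 7.82, 4.17 and 7.74 FPKM in PTPN21+VCR. Both overlapped, with log2 fold changes of 0.18 and -0.05, and the latter was 0.12 with median ratio scaling and 0.15 with quantile normalization. TBCE (ENSG00000284770) was at 14, 28.9 and 16.6 FPKM in PTPN21+DMSO and at 20.7, 34.3 and 25.7 FPKM in PTPN21+VCR. TBCE (ENSG00000285053) was at 1.37, 3.19 and 4.50 FPKM in PTPN21+DMSO and at 2.14, 1.28 and 0.0547 FPKM in PTPN21+VCR. The former changed by 0.46 on the log2 scale (limma adjusted p = 0.25). The latter changed by -0.95 (limma adjusted p = 0.207). The summed rows gave 0.32 (limma adjusted p = 0.365).

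**Figure D3:**
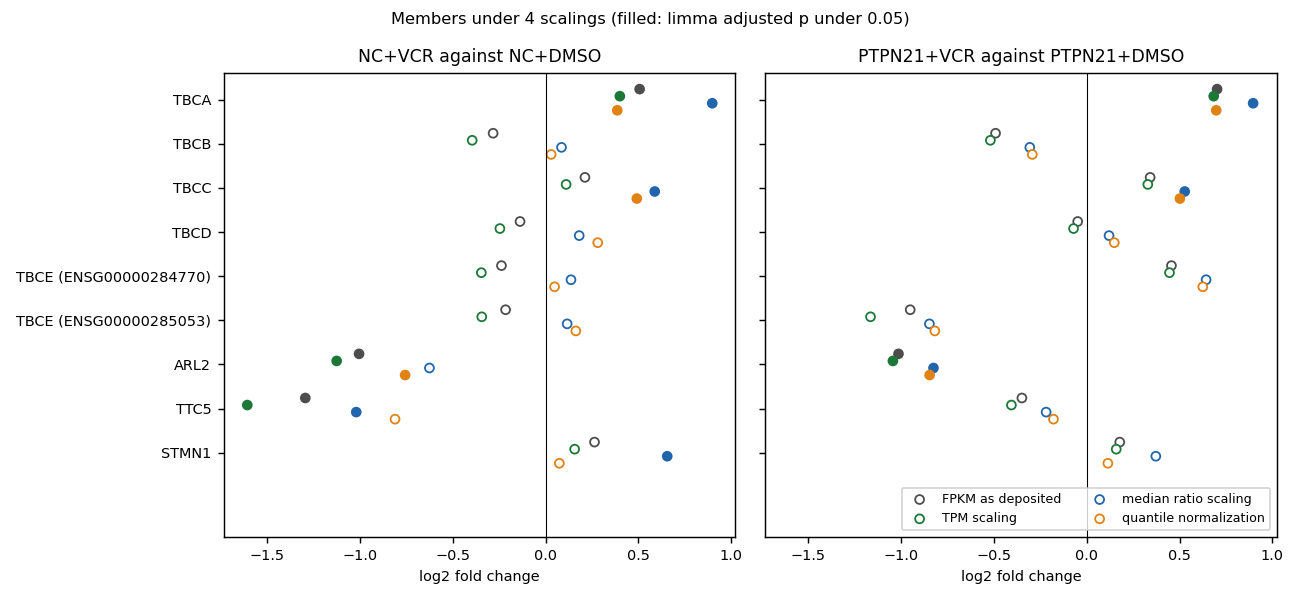
Log2 fold change (horizontal axis) of each member in the VCR comparisons under 4 scalings of the libraries. Filled points have a limma adjusted p under 0.05. TBCA lies right of 0 and is filled under all 4 scalings in both panels, ARL2 and TTC5 lie left of 0 throughout, and TBCC is filled under median ratio scaling and quantile normalization only.

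Without drug, no member differed past the threshold between PTPN21+DMSO and NC+DMSO. That is 0 of 9, with 0 of 9 also at an unadjusted p under 0.05, beside 6.34% of all genes called (2.65% higher and 3.69% lower). The higher share of these calls, 41.8%, became 73.6% after median ratio scaling, 54.5% after quantile normalization and 21.0% after TPM scaling. The groups overlapped for all 9 members, while they did not overlap for 33.4% of all genes. The largest difference was in TBCE (ENSG00000285053), with a log2 fold change of -0.87 and a 95% interval from -2.03 to 0.29 (limma adjusted p = 0.328). ARL2 differed by 0.29 (-0.15 to 0.73), TBCA by -0.11 (-0.41 to 0.18) and STMN1 by 0.06 (-0.26 to 0.38), where the sign of TBCA turned after median ratio scaling and that of STMN1 after TPM scaling and quantile normalization. TBCB differed by 0.42 (-0.11 to 0.94), TBCD by 0.39 (-0.28 to 1.06), TBCE (ENSG00000284770) by -0.36 (-0.97 to 0.25) and TBCC by -0.26 (-0.58 to 0.06). So for the members other than TBCA and STMN1 differences of moderate size remain possible. TTC5 differed by -0.45 in PTPN21+DMSO, with an interval from -1.10 to 0.20.

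Under VCR, PTPN21+VCR and NC+VCR did not differ past the threshold for any member either, 0 of 9 beside 1.82% of all genes (1% higher and 0.82% lower), with 1 of 9 at an unadjusted p under 0.05. All 9 overlapped, compared with 22.5% of genes without overlap. That 1 member was TBCE (ENSG00000285053), with a log2 fold change of -1.61 (95% interval -2.77 to -0.45, limma adjusted p = 0.143). NC+VCR replicate 3, at 1.79 FPKM, was inside the range of PTPN21+VCR, and without it the difference was -2.16 on the log2 scale (limma adjusted p = 0.0482). The row shares much of its sequence with the other TBCE row, and with the rows summed TBCE differed by 0.06 (limma adjusted p = 0.935).

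The interaction asks whether the VCR response differed between PTPN21 and NC cells. No member passed, 0 of 9 beside 0.129% of all genes (0.0259% higher and 0.104% lower), with 1 of 9 at an unadjusted p under 0.05. That member was TTC5, with an interaction of 0.95 on the log2 scale (95% interval 0.03 to 1.86, limma adjusted p = 0.343). The fall of TTC5 past the threshold in NC cells and its absence of a call in PTPN21 cells was thus not shown to be a difference between them. The interaction was -0.01 for ARL2 (-0.63 to 0.61), 0.20 for TBCA (-0.22 to 0.61) and -0.09 for STMN1 (-0.54 to 0.37).

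The other genes of the pathway were described by lists chosen with earlier results of these data known. For each list the counts are of genes past the threshold in limma, and they are to be read beside the shares of all genes given above.

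Among the close relatives and partners of the cofactors and of ARL2, 4 were tested, which were TBCCD1, RP2, ARL2BP and ARL3. None passed in NC cells (median log2 fold change -0.14), and ARL3, a GTPase of ciliary transport, fell by 0.43 in PTPN21 cells (limma adjusted p = 0.0316), a call lost with median ratio scaling and quantile normalization. TBCEL, a TBCE-like gene, was listed at 0 in all 12 libraries. In the stathmin family STMN2 and STMN4 were also listed at 0. STMN3, a mostly neuronal stathmin, fell in both. Its log2 fold change was -1.34 in NC cells (from a mean of 11.4 to 4.17 FPKM, limma adjusted p = 0.00724) and -1.23 in PTPN21 cells (8.59 to 3.21 FPKM, limma adjusted p = 0.0137).

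Of 8 stathmin kinases tested, PLK1, a mitotic kinase, rose in NC cells by 1.23 (limma adjusted p = 0.000281) and in PTPN21 cells by 1.09 (limma adjusted p = 0.000676). CAMK2G (-1.96) and CDK1 (-0.43) fell in NC cells. No other kinase passed in either comparison on FPKM as deposited. The fall of CDK1 was lost after median ratio scaling (-0.048) and quantile normalization (-0.27), and AURKB, a mitotic kinase named after its value was seen, passed as higher in NC cells after median ratio scaling (0.48, limma adjusted p = 0.0477).

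In the decay machinery that works with TTC5, 5 of 10 genes fell in NC cells and none rose, with a median of -0.60 beside -0.36 for all genes. They were CNOT2 (-1.12), CNOT8 (-0.70), CNOT1 (-0.55), the scaffold of CCR4-NOT, CNOT10 (-0.62) and CNOT9, the last beyond the 4 smallest adjusted p and chosen after its value was seen. Of these 5, 4 no longer passed after median ratio scaling. In PTPN21 cells 1 of 10 rose, the deadenylase CNOT6 (1.37, limma adjusted p = 0.00702), and none fell. Without drug, CNOT6 was lower in PTPN21+DMSO than in NC+DMSO (0.733 and 6.60 FPKM, log2 difference -2.14, limma adjusted p = 0.0068), as was CNOT2 (10.7 and 28.6 FPKM, -1.31, limma adjusted p = 0.0192). SCAPER, the adaptor between TTC5 and CCR4-NOT, was at 1.94 to 4.12 FPKM and did not pass in any of the 5 comparisons on FPKM as deposited. In NC cells its change of 0.40 became 0.69 after median ratio scaling (limma adjusted p = 0.0293) and 0.80 after quantile normalization (limma adjusted p = 0.0118), both past the threshold.

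Upstream of the cofactors, 3 of 8 prefoldin and phosducin-like genes rose and 2 fell with VCR in each cell type. The same 3 prefoldin subunits rose in both. PFDN2 went from a mean of 1010 to 2210 FPKM in NC cells (log2 fold change 1.13) and from 1174 to 1839 FPKM in PTPN21 cells (0.65). PFDN4 rose by 0.93 and 0.61 and PFDN5 by 0.82 and 0.72. The falls were in TXNDC9, a phosducin-like regulator of TRiC (-0.56 and -0.64), and, named after their values were seen, in PFDN6 in NC cells (-0.33) and VBP1 in PTPN21 cells (-0.43). After median ratio scaling none of the falls passed and 1 of those in NC cells turned positive, while the 3 rises passed in both. In the TRiC chaperonin, 3 of 8 subunits fell in NC cells, CCT7 (-0.64), CCT2 (-0.54) and CCT6A (-0.29), and 2 of 8 in PTPN21 cells, CCT7 (-0.57) and CCT2 (-0.31). After the same scaling none of the 8 passed in NC cells and 1 of the 3 turned positive, and in PTPN21 cells 1 of 8 passed.

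Among the clients of the pathway, 3 of 12 tubulin genes rose and 6 fell in NC cells, and 3 rose and 5 fell in PTPN21 cells. TUBB2B and TUBB2A, whose first codons are shown above, rose most. TUBB2B went from 8.68 to 44.1 FPKM in NC cells (log2 fold change 2.23, limma adjusted p = 1.1e-06) and from 9.18 to 45.7 FPKM in PTPN21 cells (2.20). TUBB2A went from 13.3 to 55.5 FPKM (1.98) and from 14.7 to 61.5 FPKM (2.0). TUBB, a widely expressed beta tubulin, fell from 319.3 to 173.1 FPKM (-0.88) and from 351 to 181.7 FPKM (-0.95). TUBB1, a platelet tubulin, changed by -1.67 and -1.62, and TUBA1B by -1.16 and -1.41. Of the others, named after their values were seen, TUBB6 passed in NC cells (1.26) and TUBB3 in PTPN21 cells (1.95), TUBB4B and TUBB4A fell in both, and TUBA1C fell in NC cells (-0.40). TUBB6 lay between 50.2 and 184.8 FPKM in NC+VCR, which overlapped NC+DMSO (45.9 to 51.7 FPKM). In PTPN21 cells TUBB6 changed in the other direction without passing (-0.90, limma adjusted p = 0.118). TUBB3 was low in PTPN21+DMSO, at 0 to 2.47 FPKM, beside 4.59 to 6.2 FPKM in PTPN21+VCR. With median ratio scaling 3 genes rose in each cell type, and 2 of 12 fell in NC cells and 5 of 12 in PTPN21 cells.

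Among tubulin-modifying enzymes, 6 of 11 fell in NC cells and 3 of 11 in PTPN21 cells, and none rose. SVBP, the partner of the vasohibin detyrosinases, changed by -1.31 (76.6 to 30.2 FPKM) and -1.26, and AGBL5, a deglutamylase, by -1.96 and -1.30. HDAC6, the tubulin deacetylase, changed by -1.31 in NC cells, TTLL5, a glutamylase, by -1.41 in NC cells and TTLL12 by -1.19 in PTPN21 cells. Median ratio scaling left 5 of 11 falling in NC cells and 3 of 11 in PTPN21 cells. HDAC6 was also lower in PTPN21+DMSO than in NC+DMSO, with means of 19.2 and 39.7 FPKM (limma adjusted p = 0.0305), a call lost after median ratio scaling.

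**Figure D4:**
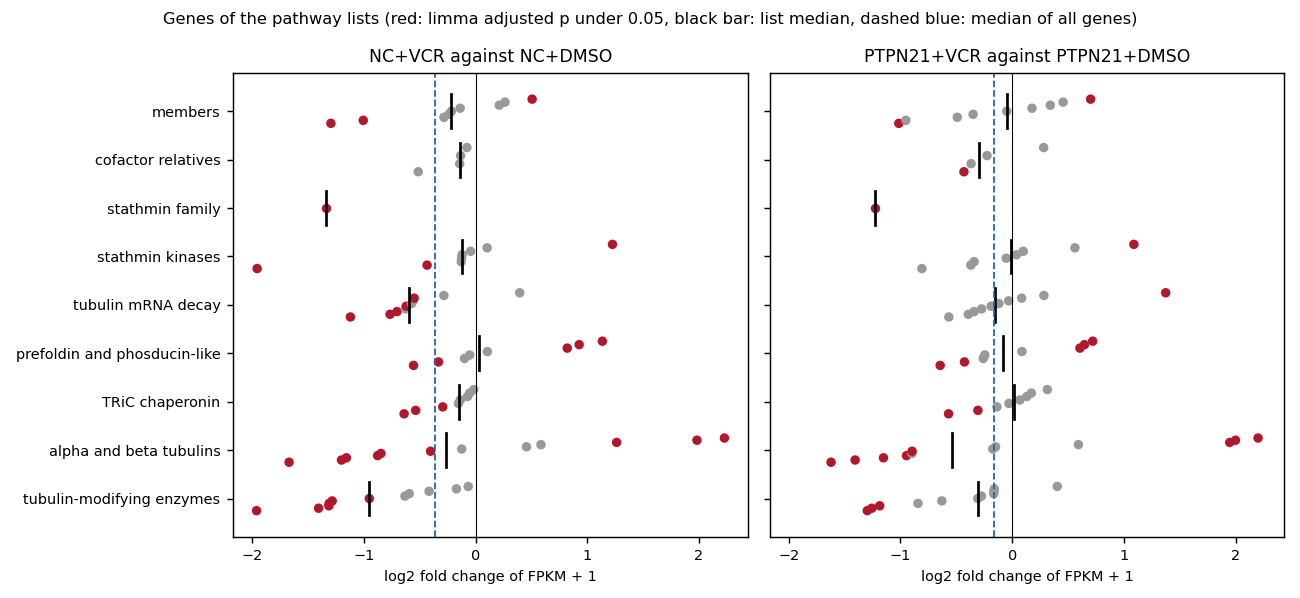
Log2 fold change of FPKM + 1 (horizontal axis) of the genes tested in each pathway list (vertical axis) with VCR in NC cells (left) and PTPN21 cells (right). Red marks a limma adjusted p under 0.05, black bars are list medians and the dashed blue line is the median of all genes tested, -0.36 and -0.17. TUBB2B and TUBB2A lie farthest right in both panels.

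Across the 12 libraries, the genes most like each member by Pearson correlation of log2(FPKM + 1) were, for TBCA, MAGOH (r = 0.96), NEDD8 (0.95) and CLU (0.95). For ARL2 they were SLC9B2 (0.97), PRIM1 (0.97) and FARS2 (0.96), and for TTC5 POGLUT1 (0.94), MEPCE (0.93) and EGFLAM-AS4 (0.93). TBCC was most like ARCN1 (0.96), KTN1 (0.96) and PELI1 (0.94). The highest r was 0.93 for TBCE (ENSG00000285053, with DENR), 0.90 for TBCB (LINC00853), 0.89 for STMN1 (FBXO8) and 0.87 for TBCD (EGFL8). These r describe 12 libraries that share their 4 groups, so genes that move with VCR score high with each other.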

How the data were processed

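The authors deposited 1 table of FPKM for 12 libraries, 3 in each of 4 groups, with 60671 human Ensembl gene identifiers. The reads were processed by a company, and the assay is called digital gene expression tag profiling in the methods. The submitters' processing notes name fastp and Bowtie2 and the mouse build mm10, which does not match the human identifiers. The counting program, its strand setting and the annotation are not given in the sources used here. Positions came from GENCODE 29 (GRCh38), which holds 96.3% of the identifiers, promoters from RefSeq (GRCh38.p14), where 8 of 8 symbols matched. Groups came from the sample labels.

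The deposited FPKM were put on the log2(FPKM + 1) scale. Genes whose mean over the libraries reached 1 FPKM were fitted with limma 3.58.1 (R 4.3.3) in a model of the 4 group means with a trend of variance on level, and p-values were adjusted by the Benjamini-Hochberg method (threshold 0.05, 2-sided). The script was tested on simulated data. Depth was estimated from steps in the deposited FPKM, and it limits low genes such as TTC5. Members, lists and tests were chosen with earlier results of these data known. All members are named, at most 4 genes per list and comparison with the smallest adjusted p, and the 3 genes most like each member, of which those below the first are given for TBCA, ARL2, TTC5 and TBCC only. A marker gene and the likeness of TBCE (ENSG00000284770) are not reported here. The fit was repeated with other scalings (TPM, median ratio and quantile normalization), with a pseudocount of 0.1, with the minimum at 5 FPKM or dropped, without the trend, on only the groups compared, with a replicate block and leaving out each library. Summing the TBCE rows was added after seeing the data. Figures used Python 3.11.15, pandas 2.3.3, numpy 2.4.6 and matplotlib 3.10.9.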

Additional observations from a re-analysis of the deposited data

Results flagged for a closer look

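TBCE (ENSG00000284770) was singled out because its VCR response had opposite directions in the 2 kinds of cells. The log2 fold change was -0.24 in NC cells, which turned positive with median ratio scaling (0.14) and quantile normalization (0.048), and 0.46 in PTPN21 cells, and every NC+VCR library lay below the NC+DMSO mean while every PTPN21+VCR library lay above the PTPN21+DMSO mean. The interaction of 0.69 did not pass (SE 0.397, limma adjusted p = 0.441), so a difference between the cells was not shown. The groups overlapped in both cell types, and with the rows of TBCE summed the interaction was 0.56 (limma adjusted p = 0.478). Groups of 3 libraries were not searched for single outlying values.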

How the results depend on the processing

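TBCA in PTPN21 cells and ARL2 in PTPN21 cells passed under 21 of 21 settings. Some settings counted here leave out a library of a group not compared, which cannot move the fold change and alters only the estimated spread. In NC cells TBCA passed under 20 of 21 (not with only the groups compared, limma adjusted p = 0.0635), ARL2 under 20 of 21 (not with median ratio scaling, 0.0599) and TTC5 under 19 of 20 (not with quantile normalization, 0.0573). The cause was not tested. STMN1 in NC cells passed under 1 of 21 settings, median ratio scaling, and TBCC under 2 of 21 in each cell type, as given above. Members past the threshold in PTPN21+VCR against NC+VCR numbered 0 to 1 when leaving out a library. Scaling also moved the split of all genes called: in NC cells 21.9% were higher, 55.8% with median ratio scaling and 52.5% with quantile normalization, and in PTPN21 cells 32.3%, 52.2% and 51.6%. TPM scaling moved it the other way, to 16.3% in NC cells and 30.0% in PTPN21 cells. The median of all genes in NC cells moved from -0.36 to -0.04 with median ratio scaling and to -0.49 with TPM scaling.

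Of all genes, those past the threshold in PTPN21+DMSO against NC+DMSO (735) numbered 177 with no filter, 321 without the trend and 40 with only the groups compared, and 67 to 1345 when leaving out a library, lowest on leaving out PTPN21+DMSO replicate 1 and highest on leaving out NC+DMSO replicate 2. In PTPN21+VCR against NC+VCR (211) they were 118 with no filter, 344 with the minimum at 5 FPKM, 72 without the trend and 117 with only the groups compared, and 43 to 354 in the same way, lowest on leaving out PTPN21+VCR replicate 2 and highest on leaving out NC+DMSO replicate 3. The interaction (15) gave 8 with no filter, 8 with the minimum at 5 FPKM and 9 without the trend, and 7 to 30 in the same way, lowest on leaving out NC+DMSO replicate 1 and highest on leaving out NC+DMSO replicate 2. In NC+VCR against NC+DMSO (4192), 2674 passed with only the groups compared.

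Same-numbered libraries did not deviate together (correlation of deviations -0.15 to 0.06 over 18 pairs, 0 above 0.1), so the numbers were not taken as pairing the samples. With a replicate block, 242 genes passed in PTPN21+DMSO against NC+DMSO, 74 in PTPN21+VCR against NC+VCR and 8 in the interaction, while members past the threshold numbered 3, 2, 0, 0 and 0 in the 5 comparisons, as without it.

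Differences of the members that changed sign had not passed the threshold, unlike 1 called gene each of the prefoldin, TRiC and proliferation lists in NC cells with median ratio scaling. With median ratio scaling and with quantile normalization, NC+VCR against NC+DMSO became 0.085 and 0.030 for TBCB, 0.18 and 0.28 for TBCD, 0.14 and 0.048 for TBCE (ENSG00000284770) and 0.12 and 0.16 for TBCE (ENSG00000285053), and TBCD in PTPN21 cells became 0.12 and 0.15. Without drug, STMN1 became -0.086 with TPM scaling and -0.13 with quantile normalization, and TBCA 0.071 with median ratio scaling. The interaction became 0.082 for ARL2 and 0.0025 for STMN1 with TPM scaling, 0.040 for STMN1 and -0.13 for TBCD with quantile normalization, and -0.0014 for TBCA, -0.060 for TBCC and -0.061 for TBCD with median ratio scaling. Leaving out a library, the ranges were, in NC cells, -0.28 to 0.12 for TBCD and -0.58 to 0.33 for TBCE (ENSG00000285053), in PTPN21 cells -0.19 to 0.21 for TBCD, without drug -0.071 to 0.19 for STMN1, under VCR -0.084 to 0.081 for STMN1, -0.034 to 0.26 for TBCA and -0.058 to 0.46 for TBCB, and for the interaction -0.19 to 0.19 for ARL2, -0.21 to 0.048 for STMN1, -0.48 to 0.040 for TBCB, -0.010 to 0.22 for TBCC and -0.17 to 0.34 for TBCD.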
